A study of Mus musculus with 2 samples.

Results

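The cytosolic ribosomal protein genes encode the proteins that, with the ribosomal RNAs, build the large and the small subunit of the ribosome outside the mitochondria. The set was chosen by symbol alone: every symbol present in both count tables that starts with Rpl or Rps and a digit, together with Rplp0, Rplp1, Rplp2 and Rpsa, without symbols holding -ps and without the Rps6k kinases. It holds 85 of the 9127 shared gene symbols. Of these, 43 encode core proteins of the large subunit, 3 the stalk of the large subunit (Rplp0, Rplp1 and Rplp2) and 31 core proteins of the small subunit. The other 8 are paralogs or symbols that only share the prefix. Rps19bp1, among the last 8, encodes a protein that binds a ribosomal protein and is not itself part of the ribosome.

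Cells came from dissociated tumours of C57BL/6 mice, and the study compared 2 genotypes. One library held WT cells. The other, called the knockout library below, held cells labelled Cdh-cre Myct1 fl/fl; in the series title the driver is spelled Cdh5-cre, the promoter of the endothelial cadherin gene, which directs Cre to endothelial cells, where it acts on floxed Myct1 alleles. Each library pooled the tumours of 4 mice, digested with collagenase-II, dispase-II and deoxyribonuclease and run on a droplet 3′ kit that counts unique molecular identifiers (UMIs, 1 per captured transcript molecule). No source used here gives the tumour type, the age of the mice or any sort. With 1 library per genotype there is no replicate check, no test was run, and genotype and library cannot be told apart; intervals below are exact 95% intervals that cover counting error only.

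Ribosomal protein genes are expressed in every growing cell and their messages are among the most abundant. Most of their messages begin with a run of pyrimidines at the very 5′ end, the terminal oligopyrimidine start, through which the mTORC1 kinase and the protein Larp1 control their translation and stability. Their transcription is known to be raised by Myc, and cells that grow fast carry more of them. The first 30 bases from the annotated start of some genes named below are given 5′ to 3′ from RefSeq (GRCm38.p6), with the letters CTTTCC in capitals where they occur. Rps27 opens with a pyrimidine run at this annotated start and the other 3 do not:
Rps27, chr3:90213619-90213648, minus strand: cCTTTCCggcggtgacgacctccctacgag
Rpl13a, chr7:45128716-45128745, minus strand: gacctcctcCTTTCCcaggcggctgccgaa
Rps15, chr10:80292431-80292460, plus strand: gataactgcgcaagcgcagcccgtacttcc
Rpl6, chr5:121204501-121204530, plus strand: attgcttatagaccggaagccgctgcctta
These are the genes with the highest and the lowest knockout ratios below, together with Rps27, which has an identical coding copy. The 2 lowest differ in this window, since Rpl13a holds CTTTCC and Rps15 does not.

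RefSeq promoters of 300 bases around the start matched 57 of the 77 core genes. A run of 8 pyrimidines on the gene's strand within 30 bases of the start stood in 50.9% of them, beside 22.8% of all 27025 promoters. CTTTCC on the gene's strand in that window stood in 15.8%, beside 2.85% of all. Over the 300 bases and both strands, CTTTCC or GGAAAG stood in 47.4% of the core promoters and in 26.3% of all. CCGGAAG or CTTCCGG, the core letters bound by Ets family factors such as Gabpa, stood in 40.4%, beside 18.8% of the 6811 other measured promoters and 9.12% of all. CACGTG, the E-box that Myc binds, stood in 8.77% of the core, 10.6% of the other measured and 7.24% of all promoters. CTTTCC and CCGGAAG can share 2 bases where they meet. These matches are letters in a window, not measured binding.

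The WT library held 10880 barcodes and 115519153 UMIs, the knockout library 10700 barcodes and 145331950 UMIs, and 218 barcode sequences occurred in both. After filters on detected genes, mitochondrial UMIs and doublets, 7840 WT and 7715 knockout cells were left. Cells were sorted by marker genes into 4 classes: endothelial (533 WT, 308 knockout), mural (87, 32), fibroblast (2922, 173) and Krt8/Krt18 positive (3139, 6357); 14.8% and 10.95% of the cells fell in no class. Although the labels call the material endothelial cells, keratin positive cells were the largest class in both libraries. All 12 endothelial markers were found in the endothelial class, at a summed level of 10791 CPM (UMIs per 10 to the power of 6 UMIs of the class) in WT and 8148 CPM in the knockout, beside 70.7 and 65.6 CPM in the keratin positive class. This contrast was set by the sorting, which required these markers in endothelial cells and limited them in keratin positive cells. Myct1, the targeted gene, stood at 246 CPM in WT endothelial cells and at 0.183 and 0.187 CPM in WT fibroblasts and keratin positive cells, and is not listed in the knockout table.

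Ribosomal protein UMIs made up a larger share of the endothelial transcriptome in the knockout library than in the WT library, 21.1% against 16.9% of all UMIs. The log2 ratio of knockout over WT was 0.32 (0.31 to 0.33), or 1.25-fold. Mural cells and fibroblasts, in which Cdh5 is not normally expressed, showed larger differences: 26.4% against 16.1% in mural cells (log2 0.71, 0.70 to 0.72) and 21.5% against 14.5% in fibroblasts (0.57, 0.56 to 0.57). In Krt8/Krt18 positive cells the share was high in both libraries, 34.9% and 34.5% (0.02). Relative to shared symbols of like transcript length the summed endothelial ratio turned to -0.03 and the keratin positive ratio to -0.28, while the mural (0.51) and fibroblast (0.07) ratios stayed above 0. Cell medians were also higher in the knockout library in the 3 stromal classes, and slightly lower in keratin positive cells (34.6% against 34.8%). The median WT endothelial cell held 16.5% ribosomal protein UMIs and the median knockout cell 20.3%, and 58.8% of knockout endothelial cells lay above the WT upper quartile, so the 2 distributions overlapped widely.

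**Figure D1:**
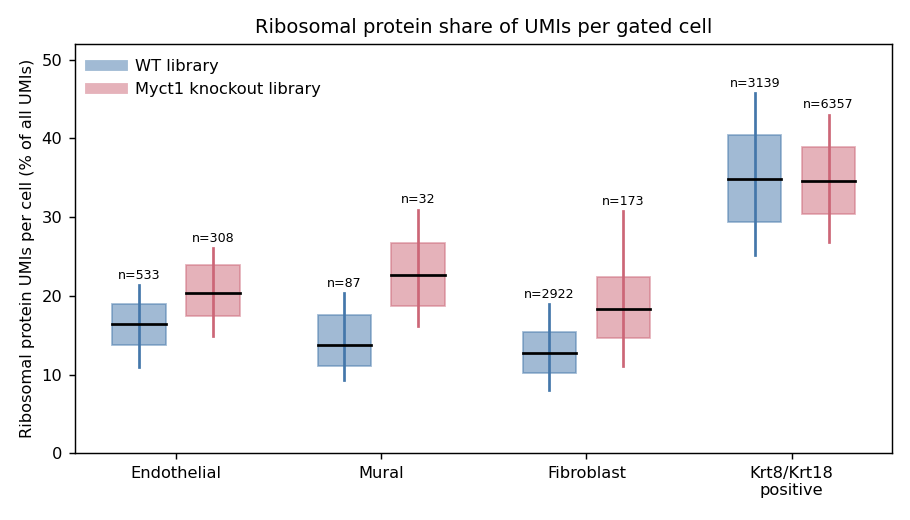
Share of each cell's UMIs that came from the 85 genes (%, vertical axis) by gated class, WT library in blue and knockout library in red; boxes span the quartiles, the black line is the median over cells, whiskers run from the 10th to the 90th percentile and n is the number of cells. Medians were 16.5% and 20.3% in endothelial, 13.8% and 22.7% in mural, 12.8% and 18.3% in fibroblast and 34.8% and 34.6% in keratin positive cells; against transcripts of like length the endothelial difference turned.

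The endothelial difference was present at each depth. With cells split into 4 equal bins of UMIs per cell over both libraries, the WT medians ran from 15.6% in the shallowest to 17.7% in the deepest bin and the knockout medians from 18.2% to 21.2%. Cycling cells, which carry at least 2 proliferation genes, were more frequent in the knockout endothelial class, 46.8% (41.1 to 52.5%) against 28.5% (24.7 to 32.6%). The call was not matched for depth, and cycling cells were deeper. Their medians were 9144 UMIs in WT and 9941 in the knockout, beside 5618 and 5956.5 in the other endothelial cells. Without cycling cells the summed shares were 16.5% and 19.98%. Cells with at least 2 of 6 capillary and venous genes (Acer2, Slco2a1, Cd36, Rbp7, Cd300lg and Tacr1), a split chosen after earlier results were known, made up 73.9% of WT and 32.8% of knockout endothelial cells. Among them the median shares were 16.5% and 20.2%, and among the remaining endothelial cells 16.5% and 20.6%.

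Keratin UMIs also moved with the share. Both keratin genes were detected in every stromal class, and their summed level, as a percentage of the level in keratin positive cells of the same library, was 1.64% in WT and 4.27% in knockout endothelial cells, 7.84% and 36.3% in mural cells, and 3.77% and 14.3% in fibroblasts. In cells with no Krt8 or Krt18 UMI the shares were 16.7% and 20.3% in endothelial cells (487 and 258 cells), 15.5% and 20.1% in mural cells (81 and 18) and 13.4% and 17.7% in fibroblasts (2552 and 123). The mural difference in log2 was then 0.38 in place of 0.71. Epcam, Cdh1, Krt14 and Krt19, from a list of other epithelial genes, were at 0 in both endothelial sums. That list summed to only 20.2 CPM in WT and 3.92 CPM in knockout keratin positive cells. These zeros therefore cannot tell whether RNA of keratin positive cells was present. The mural marker list was lower in the knockout endothelial class (9 of 12 found in each library, 742 against 1302 CPM). The classes' own markers, on which the gates rest, were also lower in the knockout library: 12 of 12 fibroblast markers were found in both fibroblast sums, at 26306 CPM in WT and 13879 CPM in the knockout, and 11 of 12 mural markers in both mural sums, at 15402 and 6031 CPM. The part of these cells or of free RNA in the difference was not tested beyond these values.

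Individual endothelial members spread widely. Of 84 members with at least 20 UMIs, 13 stood 1.5-fold or more above WT and 2 as far below it, where 11.9% of all 8178 symbols were higher and 34.5% lower by that measure. The share of members higher is near that background, while few were lower. The median member ratio was 0.30 on the log2 scale and that of all symbols was -0.31. Scaling by TMM factors gave 41 higher and 0 lower, beside 21.5% and 18.2% of all symbols. Like-length symbols as the reference gave 6 higher and 7 lower, beside 14.3% and 11.9%, with a member median of -0.12. TMM and median-of-ratios scaling moved the median of all symbols to -0.03 and -0.02. The member median stood 0.61 above that of all symbols, a gap that a factor per library cannot change, and -0.11 from it against like-length symbols.

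Among core proteins of the large subunit, 5 of 43 stood 1.5-fold or more above WT and 1 as far below, and the median ratio was 0.31. Rpl6, a protein specific to eukaryotic large subunits, had the highest core ratio: 1645 CPM in WT and 3024 CPM in knockout endothelial cells (log2 0.88, 0.83 to 0.93). Rpl15 stood at 363 and 636 CPM (0.81), Rpl21 at 1085 and 1714 CPM (0.66), Rpl11, which also binds the p53 regulator Mdm2, at 1695 and 2642 CPM (0.64), and Rpl37 at 3627 and 5641 CPM (0.64). Rpl13a, known as a regulator of translation in interferon-treated myeloid cells, lay at the other end with 1044 CPM in WT and 637 CPM in the knockout (-0.71, -0.80 to -0.63). Rpl23a (348 and 238 CPM, -0.55) and Rpl5 (647 and 534 CPM, -0.28), which joins Rpl11 and the 5S RNA in one particle, were also lower.

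The stalk recruits elongation factors to the ribosome. Its 3 proteins did not move as one in endothelial cells. Rplp0, the base of the stalk, stood at 2143 CPM in WT and 3645 CPM in the knockout (0.77, 0.72 to 0.81). Rplp1 stood at 2676 and 2305 CPM (-0.22, -0.26 to -0.17) and Rplp2 at 1758 and 1902 CPM (0.11, 0.06 to 0.17). Rplp1 turned above 0 under TMM scaling, with values from -0.64 to 0.07 over the other settings tried.

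In the small subunit, 3 of 31 core genes stood 1.5-fold or more above WT in endothelial cells and 1 as far below, and the median ratio was 0.25. Rps4x, the X-linked S4 protein, stood at 2336 CPM in WT and 4223 CPM in the knockout (0.85, 0.81 to 0.89). Rpsa, also known as the laminin receptor, stood at 2325 and 4143 CPM (0.83), and Rps2 at 2560 and 4035 CPM (0.66). Rps15, a protein of the small subunit's head, was the lowest with 958 and 619 CPM (-0.63, -0.72 to -0.55). Rps6, the substrate of the S6 kinases, stood at 908 and 715 CPM (-0.34), Rps27 at 2162 and 1736 CPM (-0.32), Rps12 at 1950 and 1669 CPM (-0.22), Rps26 at 1475 and 1328 CPM (-0.15) and Rps25 at 737 and 670 CPM (-0.14). Levels of UMIs at the 3′ end are not scaled per length, so they are compared between libraries and not between genes. Over the other scalings, filters and gates tried, the ratio of Rpl6 ran from 0.62 to 1.17, that of Rps4x from 0.44 to 1.14, that of Rpl13a from -1.15 to -0.43 and that of Rps15 from -1.05 to -0.34.

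In mural cells 53 of 85 members stood 1.5-fold or more above WT and 0 as far below, beside 13.2% and 37.7% of all symbols. With only the cells that held no Krt8 or Krt18 UMI, 20 of 83 were higher and 2 lower, beside 15.5% and 40.2%. Rpl6 (1548 and 3774 CPM, 1.29), Rps4x (1.23), Rplp0 (1880 and 4323 CPM), Rpsa (1.19) and Rps20 (1.17) were the highest core genes. Rps19bp1, which is not a core gene, had a higher ratio at a low level (26.3 and 88.1 CPM, 1.74, 0.81 to 2.74). Rpl13a stood at 1135 and 952 CPM (-0.25, -0.45 to -0.06), while for Rpl23a (-0.05, -0.35 to 0.26), Rpl24 (0.12, -0.09 to 0.33) and Rpl7a (0.13, -0.07 to 0.34) the interval included 0. The knockout sum rests on 32 cells.

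In fibroblasts 46 of 85 members stood 1.5-fold or more above WT and 3 as far below, beside 20.5% and 20.4% of all symbols, and like-length symbols as the reference gave 9 and 7, beside 17.3% and 16.6%. Rpl6 (1158 and 2886 CPM, 1.32), Rpl37 (1.14), Rpl32 (1.09) and Rplp0 (1.09) were the highest core genes. Rps15 (1374 and 856 CPM, -0.68), Rpl23a (-0.63) and Rplp1 (4112 and 2724 CPM, -0.59) were the 3 lower ones, and Rpl13a (-0.46) and Rps12 (-0.23) followed. The knockout class held 68 cells in the shallowest of 4 depth bins with a median of 567.5 UMIs. Thinned to 3000 UMIs per cell, with shallower cells left out, the shares were 13.5% in WT and 20.3% in the knockout. With at least 6 markers required, 25 members were higher and 3 lower, beside 18.5% and 21.6%.

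Keratin positive cells showed 1 of 83 members 1.5-fold or more above WT and 5 as far below, beside 6.79% and 18.2% of all symbols, and a member median of 0.01. Under TMM scaling these counts were 7 and 2, beside 15.5% and 6.75%, and against like-length symbols 1 and 15, beside 7.13% and 7.10%. Rps4x (4883 and 7339 CPM, 0.59) was the gene past the fold, followed among core genes by Rpl6 (0.56), Rpl15 (0.45) and Rplp0 (0.44). Rps19bp1, outside the core, stood at 0.51. Rpl13a (1640 and 924 CPM, -0.83), Rps15 (2224 and 1254 CPM, -0.83), Rpl23a (-0.77), Rplp1 (7216 and 4377 CPM, -0.72) and Rpl5 (-0.65) were lower. Hence Rpl6, Rps4x and Rplp0 stood among the highest and Rpl13a, Rps15 and Rpl23a among the lowest in cells of other types than the endothelium, where the Cre driver is not known to act. The classes of a library share its preparation and sequencing, and whether genotype or library set these gene-specific ratios cannot be told apart.

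**Figure D2:**
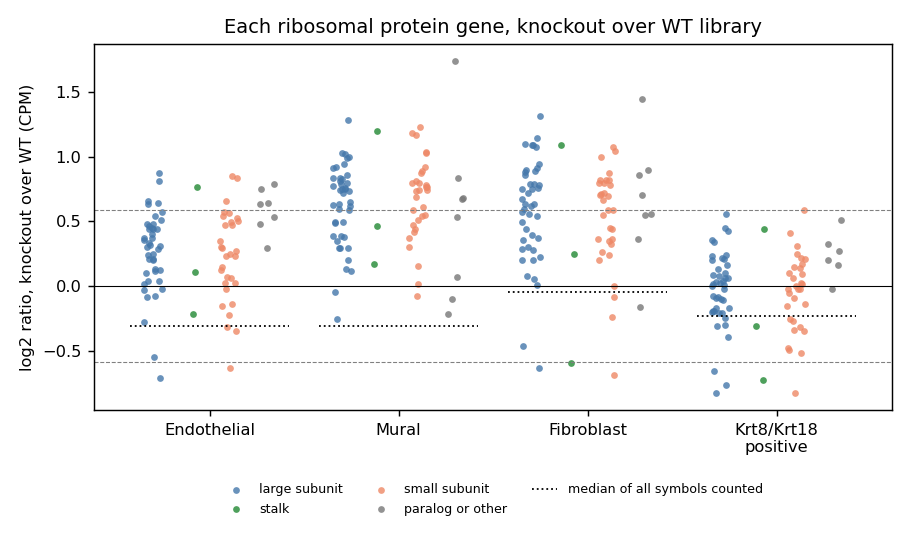
Log2 ratio of knockout over WT CPM for each ribosomal protein gene with at least 20 UMIs (vertical axis) in the 4 gated classes, coloured by role; dashed lines mark 1.5-fold, and dotted lines the median of all symbols counted. The 77 core genes ran from -0.71 to 0.88 in endothelial, -0.25 to 1.29 in mural, -0.68 to 1.32 in fibroblast and -0.83 to 0.59 in keratin positive cells, on the scale of all UMIs; against like-length symbols the endothelial median turned to -0.12.

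Set against the keratin positive cells of the same 2 libraries, the core genes all differed in the same direction in endothelium, by unequal amounts. For each gene the keratin positive log2 ratio was subtracted from the endothelial one. This difference was above 0 for 77 of 77 core genes, beside 41.7% of the 7995 symbols counted in both classes. It ran from 0.12 to 0.52 with a median of 0.29 and an SD over genes of 0.09, where the endothelial ratios themselves had an SD of 0.33. None of the 77 reached 1.5-fold, beside 7.82% of all symbols. These shares of symbols, and those for mural cells and fibroblasts below, were not matched for transcript length. Other symbols under 1000 bases had median ratios of 0.41 in endothelial and 0.36 in keratin positive cells. Rpl13a, the lowest endothelial gene, had the smallest difference (0.12), and Rpsa (0.52), Rps2 (0.51) and Rplp1 (0.51) the largest ones. The genes measured in the same libraries share depth and scaling, so the 77 are not independent points.

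In mural cells the difference was above 0 for 77 of 77 core genes, beside 41.1% of symbols, with a median of 0.68 (0.15 to 1.10). Of them 57 reached 1.5-fold, beside 13.8%. In fibroblasts 77 of 77 were above 0, beside 64.7% of symbols, with a median of 0.62 (0.13 to 0.93), and 43 reached 1.5-fold, beside 21.9%. With stromal cells that held no Krt8 or Krt18 UMI, the medians were 0.26 in endothelial, 0.32 in mural and 0.46 in fibroblast cells. In that setting 77, 74 and 74 core genes were above 0, beside 40.6%, 43.0% and 62.8% of symbols. There, 0, 6 and 10 of the 77 reached 1.5-fold, or 0%, 7.79% and 12.99%, below the 7.15%, 13.5% and 21.1% of all symbols. With at least 6 markers required, 6 core genes reached 1.5-fold in fibroblasts, beside 19.1% of symbols, and the median was 0.42.

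**Figure D3:**
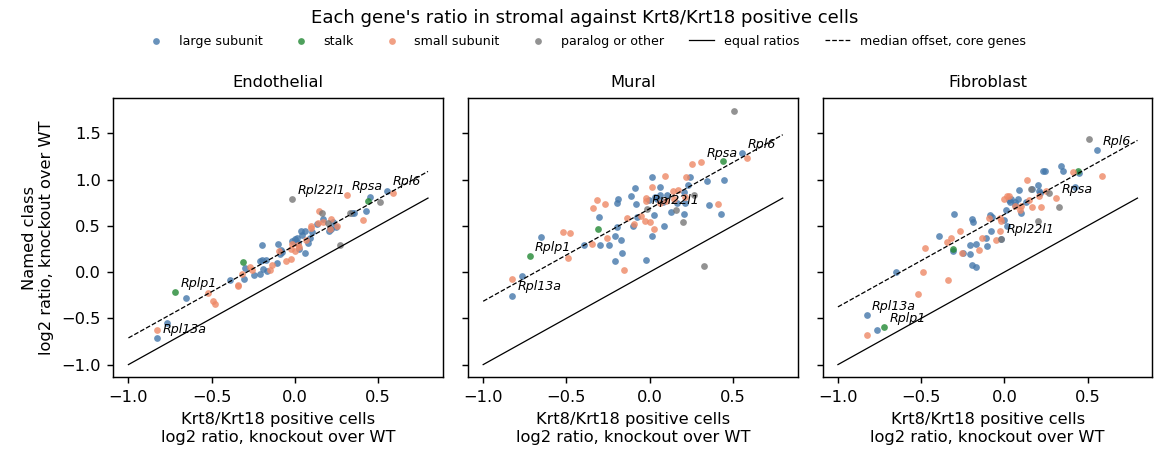
Log2 ratio of knockout over WT for each ribosomal protein gene in Krt8/Krt18 positive cells (horizontal axis) against the ratio in endothelial, mural or fibroblast cells (vertical axis); the solid line marks equal ratios and the dashed line the median offset of the 77 core genes (0.29, 0.68 and 0.62). All 77 core genes lie above the line of equal ratios in each panel, and Rpl22l1 lies farthest above the dashed line in endothelial cells.

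Transcript length moved with the ratio in every class. Core ribosomal protein transcripts are short, with a median length of 774 bases in the GENCODE M21 annotation, and 60 of 77 are under 1000 bases. Other symbols under 1000 bases had median log2 ratios of 0.41 in endothelial, 0.27 in mural, 0.57 in fibroblast and 0.36 in keratin positive cells. Symbols of 4000 to 8000 bases had medians of -0.67, -0.70, -0.28 and -0.43. The core medians of 0.29, 0.74, 0.62 and -0.00086 stood below those of the short symbols in endothelial and keratin positive cells, above them in mural cells and slightly above them in fibroblasts. Whether the ratio follows length through the libraries or the cells was not tested.

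**Figure D4:**
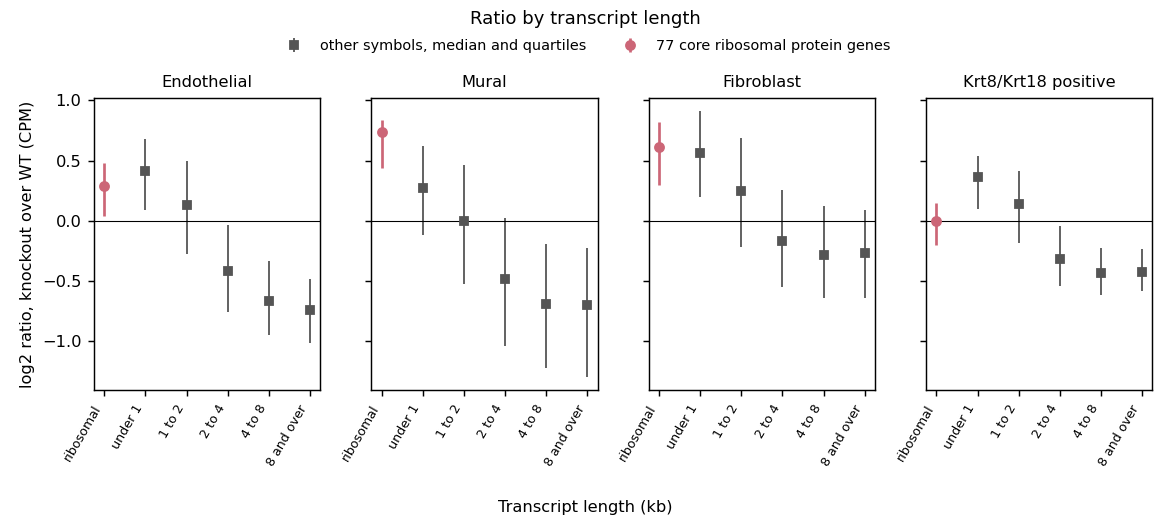
Median and quartiles of the log2 ratio of knockout over WT (vertical axis) for symbols other than ribosomal protein genes by transcript length (horizontal axis, kb) and, in red, for the 77 core ribosomal protein genes. Short symbols lie above 0 in all 4 classes (0.41, 0.27, 0.57 and 0.36 under 1 kb) and symbols over 2 kb below 0.

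Within each library the core genes were lower in stromal than in keratin positive cells. In WT, 76 of 84 members were at least 1.5-fold lower in endothelial than in keratin positive cells, beside 22.6% of all symbols, and 1 was higher, beside 34.8%. In the knockout library 58 of 84 were lower, beside 23.0%, and again 1 was higher, beside 30.2%. The median core gene was 2.07-fold lower in WT and 1.66-fold lower in the knockout, with log2 ratios of -1.05 and -0.73. Rpl17 (-1.74 in WT, -1.51 in the knockout), Rps26 (-1.55 and -1.36), Rpl26 (-1.54 and -1.06), Rpsa (-1.54 and -1.01) and Rps14 (-1.38 and -1.08) were the lowest relative to keratin positive cells in the mean of both libraries. Rpl7a (-0.38 and -0.03) and Rpl29 (-0.44 and -0.17) were among the 5 core genes closest to them. In mural cells the median core gene stood at -1.09 relative to keratin positive cells in WT and at -0.39 in the knockout. There, 76 of 84 WT members were 1.5-fold or more lower (22.0% of all symbols) and 1 was higher (34.7%), and in the knockout 2 were lower (1815 of all 8657 symbols) and 1 was higher (23.1%). In fibroblasts the median core gene stood at -1.28 and -0.67. Of 85 members, 80 were lower in WT (27.6%) and 2 higher (29.6%), and 57 were lower in the knockout (15.5%) and 2 higher (28.8%).

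Of the paralogs, Rps4l differed most between cell classes. It lies on chromosome 6 (chr6:148354656-148355598, plus strand, GRCm38) and is annotated as a transcribed processed pseudogene of Rps4x, which lies on the X chromosome (chrX:102184941-102189394, minus strand). The first 60 bases of its annotated pseudogene transcript of 789 bases and of the Rps4x coding sequence (GENCODE M21) are shown to compare the copies, with bases of Rps4l that differ in capitals:
Rps4l: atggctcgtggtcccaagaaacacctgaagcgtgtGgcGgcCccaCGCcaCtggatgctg
Rps4x: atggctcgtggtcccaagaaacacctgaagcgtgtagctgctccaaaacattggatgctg
Over the whole alignment 79.8% of positions were identical. Rps4l stood at 74.5 CPM in WT and 104 CPM in knockout endothelial cells, 57.9 and 54.0 CPM in mural cells and 44.5 and 39.9 CPM in fibroblasts. In keratin positive cells it had 10 UMIs in WT and 2 in the knockout, or 0.208 and 0.018 CPM. The endothelial level was thus 358-fold (192 to 754) the keratin positive level in WT. In the knockout, with 2 UMIs in the keratin positive sum, the ratio was 5685-fold with a counting interval from 1559 to 47178. An Rps4l UMI was found in 36.4% of WT and 47.1% of knockout endothelial cells (median depths 6220 and 7254 UMIs) and in 0.319% and 0.031% of keratin positive cells, which were deeper (15381 and 16400 UMIs). At 3000 UMIs per cell these shares were 18.8% and 24.7% against 0.099% and 0.016%. Per 100 Rps4x UMIs there were 3.19 and 2.47 Rps4l UMIs in endothelial and 0.0043 and 0.00025 in keratin positive cells, so the copies were not counted in 1 ratio. Rps4l lies within Tmtc1 on the opposite strand, and Tmtc1 is listed in neither table.

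Rpl39l, a copy of Rpl39 known from the germ line, was also found in stromal cells and hardly in keratin positive ones. Its coding sequence was 85.3% identical to that of Rpl39, and the first 60 bases show the few differences in capitals:
Rpl39l: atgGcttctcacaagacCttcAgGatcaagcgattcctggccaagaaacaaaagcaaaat
Rpl39: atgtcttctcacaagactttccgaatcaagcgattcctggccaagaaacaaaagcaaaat
Its level was 26.3 and 22.7 CPM in WT and knockout mural cells, 12.9 and 19.0 CPM in fibroblasts, 2.59 and 0.38 CPM in endothelial cells and 0.083 and 0.009 CPM in keratin positive cells. The counts behind the last 4 values were 10, 1, 4 and 1 UMIs, and the mural values rest on 15 UMIs in WT and 8 in the knockout. It was detected in 8.05% of WT mural cells, 7.29% of WT fibroblasts and 0.94% of WT endothelial cells, beside 0.127% of WT keratin positive cells.

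Rps27 has 2 further copies among the members. Rps27rt, at chr9:114982366-114982739 on the minus strand, has a coding sequence identical to that of Rps27 in 255 of 255 bases, so its reads may be split with Rps27 and both levels are uncertain. Rps27l, at chr9:66946086-66949516, is a p53 target in other tissues and was 76.1% identical. The first 60 coding bases of the 3 are shown, with bases that differ from Rps27 in capitals:
Rps27: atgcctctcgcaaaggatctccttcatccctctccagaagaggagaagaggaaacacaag
Rps27rt: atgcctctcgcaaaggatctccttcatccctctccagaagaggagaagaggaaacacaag
Rps27l: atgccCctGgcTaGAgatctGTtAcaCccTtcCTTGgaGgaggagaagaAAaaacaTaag
Per 100 Rps27 UMIs, Rps27rt had 38.4 in WT and 58.8 in knockout endothelial cells, 37.6 and 60.3 in mural cells, 35.9 and 65.3 in fibroblasts and 36.4 and 61.6 in keratin positive cells. The ratio was therefore nearly the same in all 4 classes of a library and differed between the libraries. Rps27l per 100 Rps27 was 20.1 and 36.3 in endothelial, 33.8 and 44.1 in mural, 25.6 and 37.6 in fibroblast and 26.9 and 43.4 in keratin positive cells. Its own level was 435 and 631 CPM in endothelial cells.

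Rpl22l1, whose protein can take the place of Rpl22, was the member whose endothelial ratio exceeded its keratin positive ratio most, of those with at least 20 UMIs in both classes. It stood at 705 CPM in WT and 1217 CPM in knockout endothelial cells (0.79, 0.71 to 0.86), and at 1245 and 1230 CPM in keratin positive cells (-0.02), a difference of 0.81. In mural cells its ratio was 0.68 and in fibroblasts 0.36. Per 100 Rpl22 UMIs there were 52.4 (50.04 to 54.94) in WT and 66.5 (63.5 to 69.5) in knockout endothelial cells, 74.5 and 67.8 in mural cells, 79.4 and 60.1 in fibroblasts and 40.2 and 38.8 in keratin positive cells. Endothelium was thus the class in which this proportion was higher in the knockout library. Rpl36al stood at 520 and 810 CPM in endothelial cells (0.64) and at 1182 and 1322 CPM in keratin positive cells (0.16). Rpl7l1, a protein of ribosome assembly, stood at 47.7 and 74.1 CPM (0.63) and at 52.5 and 66.0 CPM (0.33). Rps19bp1 stood at 24.1 and 40.7 CPM in endothelial cells (0.75, 0.34 to 1.17) and at 70.8 and 101 CPM in keratin positive cells (0.51). Its ratio was 1.74 in mural cells and 1.44 in fibroblasts.

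**Figure D5:**
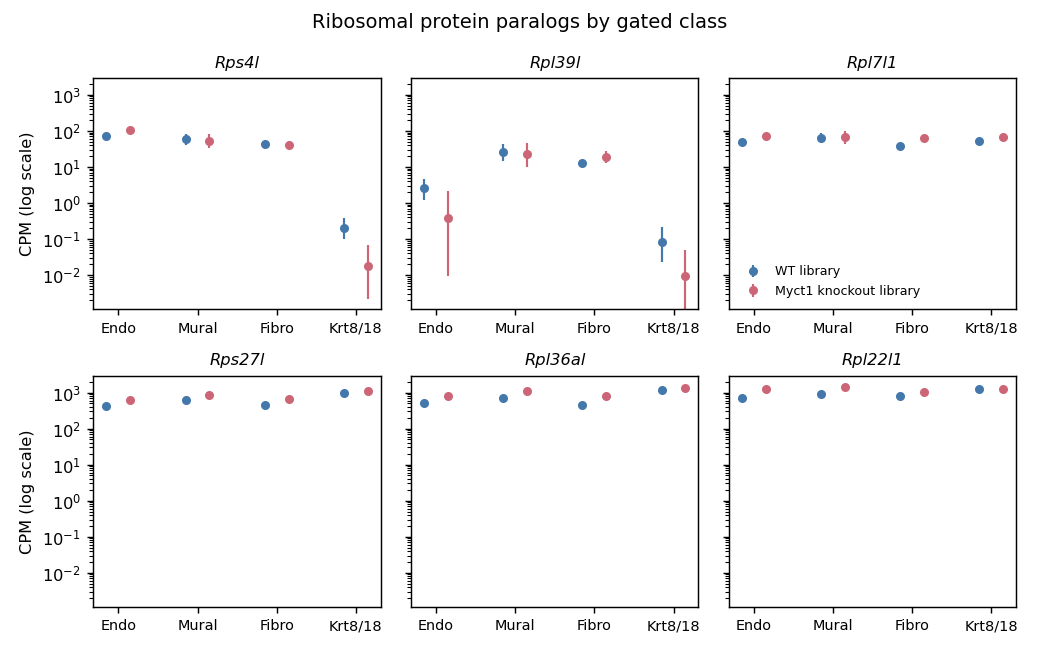
CPM on a log axis for 6 paralogs in the 4 gated classes, WT library in blue and knockout library in red, with exact 95% Poisson intervals for counting error. Rps4l (74.5 and 104 CPM in endothelial cells) and Rpl39l (26.3 and 22.7 CPM in mural cells) stand at 0.208 and 0.083 CPM or less in keratin positive cells, while the other 4 are found in every class.

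Genes that act with the ribosomal proteins were read from fixed lists, with counts past 1.5-fold in endothelial cells beside the 11.9% higher and 34.5% lower of all symbols. Fau, which encodes a ribosomal protein fused to a ubiquitin-like protein and is left out by the symbol rule, stood at 3026 and 3787 CPM (0.32). Of 15 translation factors and other genes with a terminal oligopyrimidine start, 3 were higher and 1 was lower, and the list's median was 0.13. Npm1, a nucleolar chaperone of ribosome assembly, stood at 671 and 1418 CPM (1.08), Eef1d at 179 and 306 CPM (0.78), Naca at 839 and 1427 CPM (0.77), and elongation factor Eef2 at 1218 and 788 CPM (-0.63). In keratin positive cells Npm1 had a ratio of 0.24 and Eef2 one of -0.72.

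Of 21 initiation factors, 5 were higher and 4 were lower, and the list's median was 0.11. Eif2s1 (0.95), Eif5a (0.91) and Eif1 (0.88) were high and Eif3b (-0.84) low. Of 27 ribosome biogenesis genes, 2 were higher and 4 were lower (median 0.16). Polr1a, the catalytic subunit of RNA polymerase I, stood at 22.1 and 10.3 CPM (-1.10) and its factor Ubtf at 93.9 and 57.4 CPM (-0.71), while Brix1 stood at 34.5 and 54.3 CPM (0.66) and Rrp1b at 10.4 and 6.08 CPM (-0.77, -1.71 to 0.10). The mitochondrial ribosome, built of other proteins, showed 28 of 74 genes higher and 0 lower (median 0.44), and Mrpl15 (61.5 and 125 CPM, 1.02), Mrps25 (1.00), Mrps6 (0.98) and Mrpl42 (0.95) led. In keratin positive cells 16 of these 74 were higher and 0 lower (median 0.40), beside 6.79% and 18.2% of all symbols and 20.7% and 7.19% of the symbols under 1000 bases, whose median was 0.36. The endothelial shares of symbols under 1000 bases were 33.1% higher and 6.28% lower.

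A list of mTORC1 and Myc regulators of translation showed 2 of 18 higher and 8 lower (median -0.50). Other endothelial symbols of 2000 to 4000 bases had a median of -0.42, with 7.32% higher and 38.6% lower. Those of 4000 to 8000 bases had one of -0.67, with 3.62% higher and 57.9% lower. The list was not matched for length. The 4 with the largest absolute ratios were all lower, at low levels. Rps6kb2, an S6 kinase, stood at 26.7 and 7.98 CPM (-1.74, -2.50 to -1.06) and Tsc1 at 20.5 and 8.36 CPM (-1.29, -2.05 to -0.60). Rptor stood at 22.3 and 11.8 CPM (-0.92, -1.56 to -0.31) and Deptor at 10.4 and 5.32 CPM (-0.96, -1.96 to -0.06). The median of the same list in keratin positive cells was -0.47. Targets of p53, which ribosome stress can raise, showed 2 of 10 higher and 2 lower (median -0.02). Bax (0.82) and Phlda3 (0.62) were higher, and Sesn2 (-1.13) and Trp53inp1 (-0.79) lower. Proliferation genes showed 11 of 14 higher and 0 lower (median 1.25), led by Ube2c (38.4 and 196 CPM, 2.36), Birc5 (2.21), Ccnb1 (11.9 and 47.9 CPM) and Cenpa (1.97). In fibroblasts 11 of these 14 were higher and 0 lower (median 1.28), beside 20.5% and 20.4% of all symbols. In keratin positive cells 6 were higher and 0 lower (median 0.26), beside 6.79% and 18.2%. In mural cells 3 were higher and 3 lower (median 0.16), beside 13.2% and 37.7%. Nuclear and mitochondrial RNAs that reflect RNA quality showed 0 of 16 higher and 0 lower in endothelial cells (median -0.17). The median mitochondrial share of endothelial cells was 4.60% in WT and 4.28% in the knockout.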

How the data were processed

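Droplet 3′ single-cell libraries of 2 tumour pools, 1 WT and 1 Cdh-cre Myct1 fl/fl, were analysed. The authors deposited raw UMI counts per gene and barcode, made with Cell Ranger 2.1.1 on mm10 per the submitters' processing notes; neither the annotation nor the handling of reads that match several copies is stated there. Every listed gene reached 4 UMIs in some barcode, so rarer genes are not analysed here. Symbols with -ps held 0.0365% of WT and 0.0347% of knockout UMIs.

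Barcodes with at least 200 genes and at most 10% mitochondrial UMIs were kept, and those above 0.3 in a nearest-neighbour doublet score (280 WT, 507 knockout) were left out. Endothelial, mural and fibroblast cells had at least 4 of 12 markers, at least 2 times as many as of either other list, and more marker than Krt8 and Krt18 UMIs. Keratin positive cells had both keratins, at least 100 CPM together, and fewer than 4 markers of each of the endothelial, mural, fibroblast and macrophage lists. Counts were summed per class and library and scaled by all UMIs. Ratios carry exact conditional binomial intervals and shares Clopper-Pearson intervals, all 95% and for counting error only. A gene was counted as higher or lower at 1.5-fold with at least 20 UMIs over both libraries. The ratio and its interval were tested on simulated Poisson counts. These hold no spread between cells or mice, so they check the calculation only. Members, lists and splits were chosen with earlier results of these data known. Named genes were the 10 highest and 10 lowest in endothelial cells by the interval bound nearest 0, 5 each in other classes and between classes, all paralogs, and up to 4 per related list. Some genes that this rule names are not reported here. Members share reads with pseudogene copies to an unknown extent, and Rpl13, Rpl13a, Rpl19, Rpl24, Rpl36al and Rps10 overlap annotated genes other than small RNAs on the same strand, so their levels are uncertain. TMM factors came from edgeR 4.0.16 in R 4.3.3, intervals from scipy 1.17.1, doublet neighbours from scikit-learn 1.9.0, and tables and plots from pandas 2.3.3, numpy 2.4.6 and matplotlib 3.10.9 under Python 3.11.15.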

Additional observations from a re-analysis of the deposited data

How the results depend on the processing

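The values are the log2 ratio of the summed ribosomal protein UMIs and the counts of members at least 1.5-fold higher or lower. Under the alternatives 78 such values stayed within the counting interval or within 1.5 times the count, and 70 did not. TMM factors gave summed log2 ratios of 0.59 in endothelial, 1.01 in mural, 0.58 in fibroblast and 0.24 in keratin positive cells. They gave 41 members higher and 0 lower in endothelial cells, beside 21.5% and 18.2% of all symbols. In keratin positive cells 7 were higher and 2 lower, beside 15.5% and 6.75%. Median-of-ratios scaling gave 0.61, 1.02, 0.61 and 0.26. It gave 43 higher and 0 lower in endothelial cells, beside 22.1% and 17.7% of all symbols. In keratin positive cells it gave 8 and 2, beside 16.3% and 6.36%. Scaling by UMIs other than ribosomal protein and mitochondrial ones gave 0.39, 0.92, 0.71 and 0.023. In endothelial cells 21 members were then higher and 1 lower, beside 14% and 29.8% of all symbols. In fibroblasts 0 were lower, beside 15.1%. Relative to symbols of like length the summed ratios were -0.032, 0.51, 0.067 and -0.28, so the direction turned in endothelial and keratin positive cells. In endothelial cells 6 members were higher and 7 lower, beside 14.3% and 11.9% of all symbols. In mural cells 23 were higher, beside 20.6%. In fibroblasts 9 were higher and 7 lower, beside 17.3% and 16.6%. In keratin positive cells 15 were lower, beside 7.1%. With at least 6 markers the fibroblast ratio was 0.38 with 25 higher, beside 18.5% of all symbols. With no Krt8 or Krt18 UMI the ratios were 0.28 in endothelial, 0.38 in mural and 0.40 in fibroblast cells. In mural cells 20 members were then higher and 2 lower, beside 15.5% and 40.2%. Without doublet removal the ratios were 0.37 in endothelial (1 lower, beside 32.2%), 0.55 in fibroblast and 0.012 in keratin positive cells (0 higher, beside 6.81%). At most 5% mitochondrial UMIs gave 0.78 in mural, 0.53 in fibroblast and -0.017 in keratin positive cells. In endothelial cells 1 member was lower, beside 35.8% of all symbols, and in keratin positive cells 0 were higher, beside 7.85%. Cells thinned to 3000 UMIs gave 0.31, 0.63, 0.59 and -0.016, with 2 higher in keratin positive cells, beside 9% of all symbols. Each cell weighted equally gave 0.31, 0.66, 0.52 and -0.021, with 3 higher in keratin positive cells, beside 8.02%. Without cycling cells the ratios were 0.27, 0.64, 0.54 and 0.0020. In endothelial cells 4 members were then lower, beside 35.7% of all symbols, and in mural cells 2, beside 41.2%. In keratin positive cells 2 were higher, beside 10.1%. In 2 alternatives added after earlier results were known, endothelial cells without and with the capillary and venous genes gave 0.30 and 0.34. In the latter 1 member was lower, beside 35.5% of all symbols. The cause of these shifts was not tested.

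No paired analysis was possible because each genotype has 1 library. The counting intervals are narrow since members hold many UMIs, and they say nothing of the spread between mice. Rps4l and Rpl39l in keratin positive cells rest on 1 to 10 UMIs.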
